A study of Homo sapiens with 2 samples.

Results

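The 7 genes described here encode cyclins, kinases and regulators of the G1 phase of the cell cycle: CCND1, CCND2, CCNE1, CDK4, CDK6, RB1 and E2F1. Sites of the zinc finger protein ZFX, a transcription factor, were mapped over the genome with ChIP-seq, in which DNA pulled down with a protein is sequenced, in the medulloblastoma line DAOY, long established in culture. There were 2 samples with 1 library each, the precipitate obtained with an antibody against ZFX and the input, sheared chromatin of the same line that was not precipitated. Only the peak list of the ZFX library was analysed here. Each gene was taken by its transcription start site on the build hg19, and a peak was counted when at least 1 base of it lay within 5 kb of that site. Of 14471 peaks in the list, 13 met this rule, and they lay at 6 of the 7 genes. With 1 library there was no replicate, no error could be given for a peak, and no difference was tested. Scores are those the authors gave and have no stated unit. They were used only to describe and order peaks within this list, and the size of a difference between scores has no known meaning. Peaks called stronger or weaker are those with higher or lower scores, and strength of binding was not measured.

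In G1, D-type cyclins bind the kinases encoded by CDK4 and CDK6, and these complexes phosphorylate the retinoblastoma protein RB1. Phosphorylated RB1 releases E2F factors such as E2F1, which then activate genes of DNA replication and also CCNE1. The product of CCNE1 drives entry into S phase with its own partner kinase. CCND2 and CDK6 are known to be amplified in some medulloblastomas, and D-type cyclins drive the division of granule neuron precursors in the developing cerebellum.

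The sequences before the start sites are shown for the 4 genes with a peak whose RefSeq promoter entry begins at the outer end of the gene, because the nearest peak at each of them lay within 423 bp of the start site on hg19. They come from RefSeq on GRCh38.p14, not on hg19, and were not placed against the peaks by position. Whether each RefSeq start is the same start as the hg19 site of its gene was not checked. Each line gives the 250 bases before the start, 5′ to 3′ along the transcribed strand. Capitals mark GC boxes (GGGCGG or its reverse complement) and the E2F word TTTGGCGC on either strand.
CDK4 promoter (chr12:57752311-57752560, - strand): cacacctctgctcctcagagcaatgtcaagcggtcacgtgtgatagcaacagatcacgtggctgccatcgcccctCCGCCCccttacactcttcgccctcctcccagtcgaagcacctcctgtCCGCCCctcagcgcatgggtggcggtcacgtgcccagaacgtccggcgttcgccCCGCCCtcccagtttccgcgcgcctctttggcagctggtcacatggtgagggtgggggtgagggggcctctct
CCNE1 promoter (chr19:29811741-29811990, + strand): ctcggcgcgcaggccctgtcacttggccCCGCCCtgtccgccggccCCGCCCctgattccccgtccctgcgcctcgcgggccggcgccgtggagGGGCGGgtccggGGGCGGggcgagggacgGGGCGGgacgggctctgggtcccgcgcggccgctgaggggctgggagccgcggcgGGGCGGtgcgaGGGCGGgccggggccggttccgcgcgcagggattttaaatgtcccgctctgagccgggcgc
E2F1 promoter (chr20:33686386-33686635, - strand): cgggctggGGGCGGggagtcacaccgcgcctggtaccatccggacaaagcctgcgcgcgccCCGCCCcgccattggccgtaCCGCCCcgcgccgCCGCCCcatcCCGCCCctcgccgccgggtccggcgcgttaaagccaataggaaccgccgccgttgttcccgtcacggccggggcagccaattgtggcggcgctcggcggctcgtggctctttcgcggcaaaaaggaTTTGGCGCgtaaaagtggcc
CDK6 promoter (chr7:92836574-92836823, - strand): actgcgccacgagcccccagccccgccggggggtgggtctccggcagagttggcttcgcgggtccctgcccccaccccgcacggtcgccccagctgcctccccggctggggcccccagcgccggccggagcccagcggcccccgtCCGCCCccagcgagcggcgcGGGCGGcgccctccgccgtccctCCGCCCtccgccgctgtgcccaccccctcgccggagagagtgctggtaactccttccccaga

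A peak was listed near 6 of the 7 start sites, and each of these 6 genes had a peak within 1 kb of its start site. CCND2 and CDK6 had 3 peaks each, CCNE1, CDK4 and E2F1 had 2 each, RB1 had 1, and CCND1 had none. As background, 4.11% of 293601 windows of 10001 bp, laid end to end between the outermost peaks of each chromosome, held a peak. Among the 1386 windows within 1 Mb of the 7 genes, their own windows left out, the share was 5.12%. These windows were laid without regard to start sites, and other start sites on hg19 were not analysed here. The count of 6 in 7 therefore compares start sites with the genome at large, and it does not set these genes apart from other genes. At least 2 peaks were listed at 5 of the 7 genes and at least 3 at 2 of the 7. Of all windows, 0.867% held 2 or more peaks and 0.161% held 3 or more. Among the 12058 windows with any peak, 21.1% held 2 or more and 3.92% held 3 or more. None of these windows was centred on a start site by design, so these counts do not set the 7 genes apart from other genes either.

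**Figure D1:**
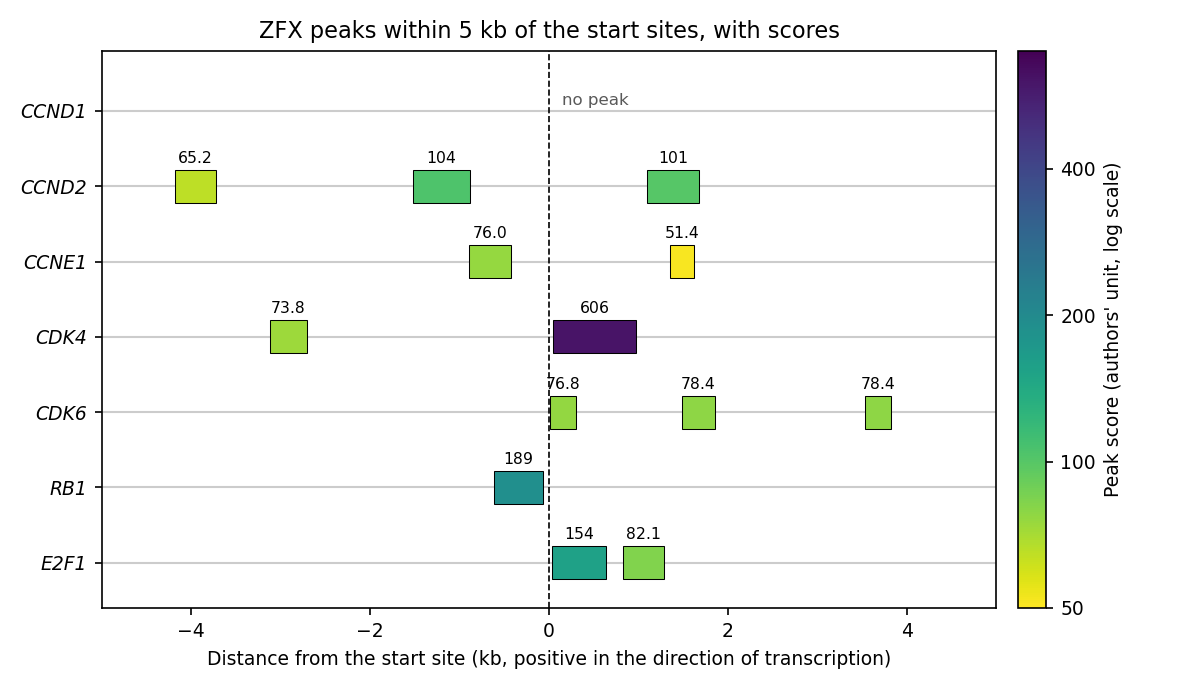
Peaks of the ZFX library within 5 kb of the start sites of the 7 genes, drawn to scale; the horizontal axis is the distance from the start site in kb, positive in the direction of transcription, and colour and number give the score. The CDK4 peak just downstream of the start site has the darkest colour (606), CCND1 has no peak, and with positions as deposited no start site (dashed line) lies inside a peak.

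Of the D-type cyclin genes CCND1 and CCND2, CCND2 had peaks near its start site and CCND1 had none, and peaks at CCND3 were not analysed here. CCND1, which encodes cyclin D1, had no peak within 5 kb of its start site at chr11:69455873. The nearest peak began 33.6 kb downstream (chr11:69489474-69490182), was 709 bp wide and scored 219.8, and 74.7% of the list scored as high or lower. The nearest peak upstream lay 220.1 kb away and scored 62.5. The 2 Mb around CCND1 held 11 peaks, so the region was not without peaks, and 10 of its 198 windows of 10001 bp held one (5.05%). RefSeq lists LTO1, a protein-coding gene, among the neighbours of CCND1 on the downstream side, and the peak was not assigned to either gene. Read depth was not analysed here, so a weaker site at CCND1 that missed the authors' threshold cannot be told apart from no site.

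CCND2, which encodes cyclin D2, had 3 peaks around its start site at chr12:4382902. The peak upstream nearest to the site (chr12:4381378-4382020) ended 882 bp before it and scored 104.0. The peak downstream (chr12:4384000-4384576) began 1098 bp after the start site and scored 100.7. The third, farther upstream (chr12:4378725-4379181), scored 65.2, and its midpoint lay 3949 bp from the site, the farthest of the 13. All 3 scores were below the list's median of 108.9. The peaks were 643, 577 and 457 bp wide in that order, and the gaps between neighbours were 2196 and 1979 bp. The antisense transcript CCND2-AS1 overlaps this gene in RefSeq, and the peaks were not assigned to either. A stronger peak, with a score of 440.2, lay 46.9 kb downstream (chr12:4429534-4430167). TIGAR is the next protein-coding gene on that side in RefSeq, and this peak was likewise not assigned to a gene.

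CCNE1, which encodes cyclin E1, had the lowest highest score among the 6 genes with a peak, and the lowest-scoring single peak of the 13. Its peak upstream of the start site at chr19:30302901 (chr19:30302006-30302478) scored 76.1 and ended 423 bp before the site. The peak downstream (chr19:30304250-30304524) scored 51.4 over 275 bp, close to the lowest score of the list (50), and 3.72% of all peaks scored as low or lower. Both lay below the score of 100. The strongest peak within 100 kb of any of the 7 start sites lay upstream of CCNE1, at 96.6 kb (chr19:30205792-30206856), with a score of 1050 and rank 276 of 14471. C19orf12 is the next protein-coding gene on that side in RefSeq, and the peak was not assigned to a gene.

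Of the kinase genes, CDK4 had 1 high-scoring peak and CDK6 only low-scoring ones. CDK4 carried the highest score at any of the 7 genes, 606.0, in a peak of 935 bp (chr12:58145254-58146188). It ran from 42 to 976 bp downstream of the start site at chr12:58146230, and ranked 826 of 14471, with 94.3% of the list scoring as high or lower. The next gene in the order, RB1, had a highest score of 189.4. A weaker peak within 5 kb of this start site (chr12:58148930-58149349) scored 73.8 and lay 2.70 to 3.12 kb upstream. MARCHF9 is the protein-coding neighbour on the upstream side of CDK4 in RefSeq, and TSPAN31 overlaps CDK4, and the peaks were not assigned among these genes. CDK4 also lay in the richest surroundings of the 7 genes, with 26 peaks within 1 Mb and 9.60% of the windows there holding one. Copies of this region in DAOY were not measured here.

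CDK6, which encodes the other kinase that pairs with D-type cyclins, had 3 peaks, all below the median score of the list. They scored 76.8 (chr7:92465639-92465930), 78.4 (chr7:92464087-92464452) and 78.4 (chr7:92462118-92462414), between 34.7% and 35.9% of the list at or below each. All of them lay downstream of the start site at chr7:92465941, with midpoints at 156.5, 1671.5 and 3675 bp. They were narrow, 292, 366 and 297 bp wide, against 481 bp for the median peak of the list. No other peak lay within 100 kb, and the nearest one upstream was 207.3 kb away. RefSeq gives CDK6 a pair of starts 2614 bp apart on GRCh38.p14 and an overlapping noncoding transcript gene, CDK6-AS1, and the peaks were not assigned among them.

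**Figure D2:**
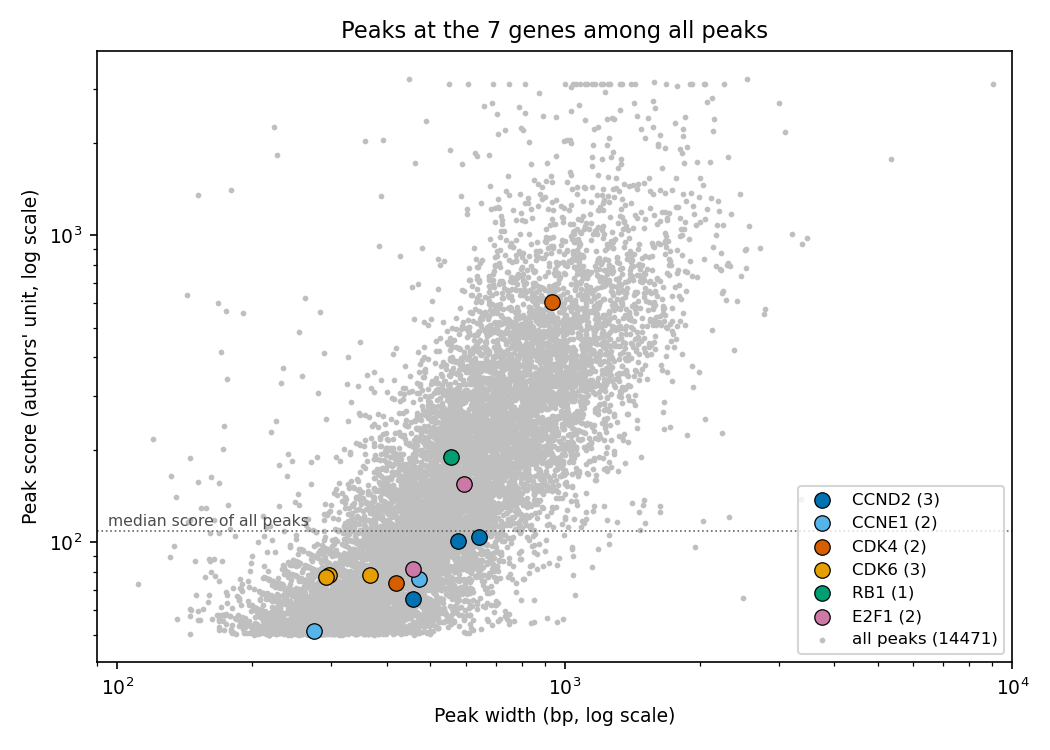
Width in bp and score of every peak (grey, 14471) and of the 13 peaks at the 7 genes (coloured by gene), both axes logarithmic, with the median score of the list as a dotted line. The stronger peak at CDK4, the peak at RB1 and 1 of the peaks at E2F1 lie above the line, and the other 10 lie below it.

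RB1, the tumour suppressor that the kinases phosphorylate, had a single peak (chr13:48877267-48877821). It was 555 bp wide, scored 189.4 and ranked 4333 of the list. It lay from 616 to 62 bp upstream of the start site at chr13:48877883. On chromosome 13, 78.9% of peaks scored as high or lower, and in the whole list 70.1% did. The surroundings of RB1 were the poorest of the 7 genes, with 6 peaks within 1 Mb and 2.02% of the windows there holding one. That count equals the median of 6 peaks in windows of 2 Mb laid over the chromosomes. The share was 4.11% over all windows of 10001 bp. The only other peak within 100 kb of the RB1 start site lay 70.3 kb upstream and scored 164.8. RB1-DT, a noncoding transcript gene, is the next gene on the upstream side in RefSeq, and the peak was not assigned to either.

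E2F1, the activator that RB1 restrains, had 2 peaks downstream of its start site. The stronger (chr20:32273578-32274172) ran from 38 to 632 bp downstream of the start site at chr20:32274210 and scored 154.5. The other (chr20:32272930-32273386) scored 82.1 and followed after a gap of 191 bp, the smallest gap between peaks at these genes. When peaks at most 1 kb apart were joined, these were the only ones of the 13 that became 1 region. The next peak upstream began 45.6 kb away and scored 137.1.

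By highest score within 5 kb the order was CDK4 (606.0), RB1 (189.4), E2F1 (154.5), CCND2 (104.0), CDK6 (78.4) and CCNE1 (76.1), with CCND1 having no peak. Whether neighbours in this order differ beyond the error of a score could not be tested with 1 library. The median of the 6 highest scores was 129.2, and the median of the highest score over all windows that held a peak was 133.1. Taken singly, the 13 peaks had a median score of 78.4 against 108.9 in the list. Of the 13, 3 reached the list's median score. A score of 100 was reached by 5 of the 13 and by 53.4% of the list. By gene, 3 of the 7 had a peak at or above the median score, against 2.38% of all windows of that length. A peak scoring 100 or more was present at 4 of the 7, against 2.52%. Those windows were laid without regard to start sites, so these shares do not set the 7 genes apart from other genes. The median width of the 13 peaks was 457 bp against 481 bp in the list. Apart from the stronger CDK4 peak, no peak of the 13 ranked above that of RB1.

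With positions as deposited, no start site of the 7 lay inside a peak. At CDK6, E2F1, CDK4 and RB1 the nearest edge was 11, 38, 42 and 62 bp away. At CCNE1 and CCND2 it was 423 and 882 bp away. Read along the gene, 8 of the 13 midpoints were downstream and 5 upstream. Read along the chromosome, the nearest edge lay toward lower coordinates at all 6 genes with a peak, whichever strand the gene is on, and 10 of the 13 midpoints did so. Strand and side thus coincide: the peaks nearest to the start site were upstream in the genes on the plus strand (CCND2, CCNE1, RB1) and downstream in those on the minus strand (CDK4, CDK6, E2F1). Whether the deposited positions are offset along the chromosome was not tested, and other start sites were not examined for their side. At CDK6, E2F1, CDK4 and RB1 the largest of these distances was 62 bp. A move of the peaks by that much toward higher coordinates covers these 4 start sites by construction and tests nothing. The count of 0, these short distances and the side of the peaks nearest to these 4 sites hold only for the positions as deposited. They also hold only for the hg19 start sites used here, since RefSeq starts on GRCh38.p14 were not placed on hg19.

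Widening the window added little near these genes. The same 6 genes had a peak within 1 kb, where 1.11% of windows of that length held one, within 2 kb (1.88% of windows) and within 10 kb (7.52%). Within 50 kb all 7 genes had one, CCND1 included, as did 26.0% of windows of that length. Between 5 and 10 kb from the start sites there was no further peak, and the nearest one outside the window lay 19.1 kb upstream of CDK4 with a score of 98.0. Within the window of 5 kb, the midpoints farthest from a start site were those of CCND2 at 3949 bp and CDK6 at 3675 bp. Within 1 Mb on either side, CDK4 had 26 peaks, E2F1 22, CCNE1 14, CCND1 11, CDK6 11, CCND2 8 and RB1 6. The share of 10001 bp windows with a peak in these surroundings was 8.59% at E2F1, 4.55% at CCNE1, 3.54% at CDK6 and 2.53% at CCND2. Windows of 2 Mb laid over the chromosomes had a median of 6 peaks, and CDK4 and E2F1 matched or exceeded 91.4% and 88.6% of them.

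**Figure D3:**
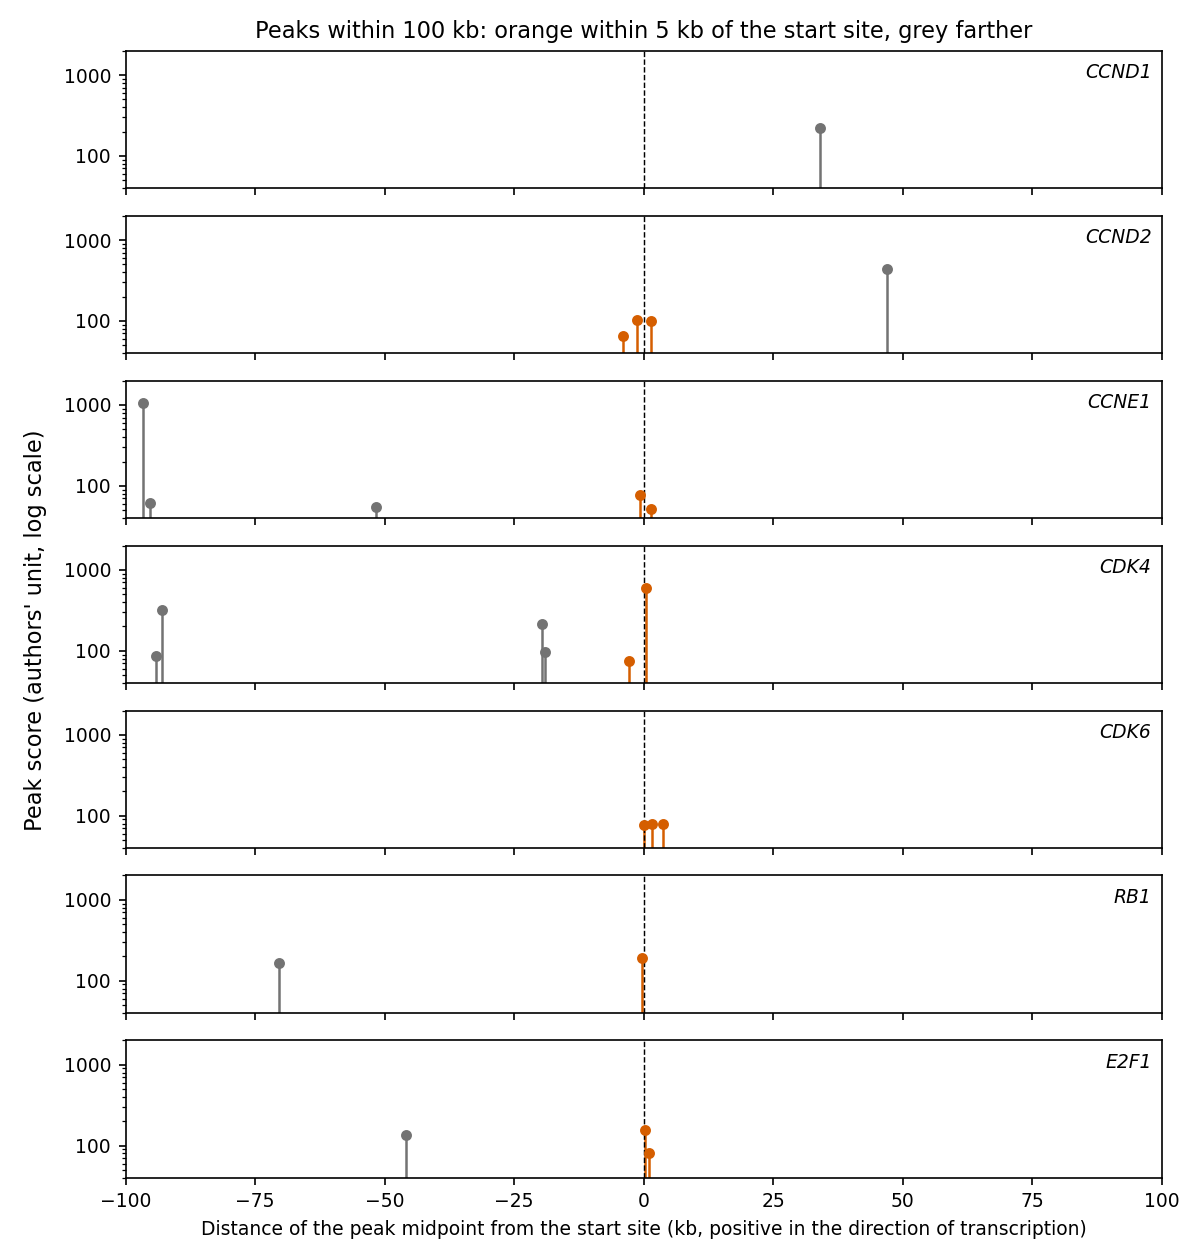
Peaks within 100 kb of each start site by distance of the midpoint in kb, positive in the direction of transcription, with the score on a logarithmic axis; orange peaks lie within 5 kb of the start site and grey ones farther. CCND1 has a single grey peak at 34.0 kb, the strongest peak shown is 96.6 kb upstream of CCNE1, and CDK6 has no grey peak.

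The promoter sequences of these genes were described on their own, as 300 bases from 250 before to 50 after the start. RefSeq promoter entries were found for 5 of the 7 genes, CCNE1, CDK4, CDK6, E2F1 and RB1. The RB1 entry starts 172.7 kb inside the gene on GRCh38.p14, so it was not taken as the start described above and its sequence was left aside. In the 4 genes shown, GC content was between 66.0% and 81.0%, against a median of 58.7% over 35116 promoters. The ratio of observed to expected CpG was between 0.718 in CDK4 and 1.14 in E2F1, against a median of 0.579. GC boxes (GGGCGG, either strand) were found in all 4, with 7 in CCNE1, 6 in E2F1 (1 of them after the start, outside the printed stretch) and 3 each in CDK4 and in the CDK6 start shown, and 45.0% of all promoters hold at least 1. The other CDK6 entry had a GC content of 68.7% and no GC box. AGGCCT, a core word of the known ZFX motif that reads the same on both strands, and the longer AGGCCTAG, which contains it, were in none of the 4, and 10.9% and 0.994% of all promoters hold them. That says only that these letters are absent from these windows.

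The E2F word TTTGGCGC (either strand) was found in the E2F1 promoter, beginning 20 bp before the start, and in none of the other 3. It is held by 0.652% of all promoters. E2F1 is known to be activated by E2F factors through such words in its own promoter. The other word searched, TTTCCCGC (either strand), was in none of the 4 and is held by 1.63%. Only these exact words were searched, so other forms of an E2F site were not counted in any promoter. Among 22 other G1 genes, chiefly cyclins, kinase inhibitors, RB1 relatives and E2F partners, 18 had an entry, with 27 promoters in all. Over these 27 promoters the median GC content was 62.7% and the median ratio of observed to expected CpG was 0.792. The CpG ratios of the 4 genes shown lay on both sides of that median. GC boxes were in 19 of the 27, TTTGGCGC in 3 and TTTCCCGC in 1. TTTCCCGC lies in a promoter of E2F3. The 3 with TTTGGCGC belong to CDC25A, a phosphatase that activates cyclin-dependent kinases, to E2F2 and to RBL1, a relative of RB1, and AGGCCT was in 2, of E2F3 and SKP2, all of them named here after their sequences were seen. AGGCCTAG was in none of the 27. Peaks at these other genes were not analysed here, since their hg19 start sites were not used.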

How the data were processed

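ChIP-seq of ZFX in DAOY cells was deposited as 1 peak list. Samples were grouped by the antibody in the labels, and the input was not analysed here. MACS is named as the caller only in the names of the peaks, and its version, threshold and control are not stated in the labels. Bowtie2 2.0.0 and hg19 stand in the submitters' processing notes, with no role given. The authors deposited 1 score per peak, without a stated unit; read depth was not analysed here. Starts were taken as counted from 0 and are printed counted from 1. The 7 genes, their hg19 start sites and the lists were chosen with earlier results of these data known. All 7 genes are named, and of the other G1 genes those with AGGCCTAG in the promoter were to be named. Peaks were counted by overlap of 1 bp with a window of 5 kb on either side, and the same length was tiled over the chromosomes as background. RefSeq neighbours and promoters (GRCh38.p14) were matched by symbol: all 7 genes were in the gene table and 5 had a promoter entry. Counting was tested on simulated data. Scripts ran in Python 3.11.15 with pandas 2.3.3, scipy 1.17.1, numpy 2.4.6 and, for figures, matplotlib 3.10.9.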

Additional observations from a re-analysis of the deposited data

How the results depend on the processing

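The 6 genes with a peak were the same within 1, 2 and 10 kb of the start site, by midpoint and with starts counted from 1. With 50 kb all 7 had one, where 26.0% of windows of that length did. Among peaks at or above the median score 3 genes remained (CDK4, RB1 and E2F1), and among peaks scoring 100 or more 4 (these and CCND2); a stricter score leaves fewer by construction. The 13 peaks became 7 within 1 kb, 3 at or above the median score and 5 at a score of 100 or more. They stayed within 1.5 times in the other settings, from 10 within 2 kb to 18 within 50 kb, with 12 after joining. The share of windows with a peak, 4.11%, was 5.12% within 1 Mb of the genes and 2.38% for peaks at or above the median score. Of 112 recomputed values of single genes, 92 kept theirs, or their count within 1.5 times, and 20 moved. Highest scores were left out of the 112 where a setting left a gene with no peak. A highest score that passes a score limit is unchanged by construction, so the 92 is not a measure of stability. No paired analysis was possible because each group holds 1 library and only the ZFX library has a peak list. Weak sites below the authors' threshold cannot be counted.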
